A study of Mus musculus with 12 samples.

Results

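The genes described are 9 transcription factors that specify or maintain the macrophage lineage: *Spi1*, *Cebpa*, *Cebpb*, *Cebpd*, *Maf*, *Runx1*, *Id2*, *Mitf* and *Tfec*. They were taken by name, as all probes whose accession belongs to 1 of these genes, which gave 15 of 41174 probes and 9 of 32301 genes or transcripts. RNA was measured in bone marrow-derived macrophages (BMDMs), cells grown for 7 days from bone marrow with the growth factor M-CSF, from C57BL/6 mice aged 8 weeks. The mice were wild type (WT) or KpCKO, which carry floxed alleles of *Keap1* together with *LysM*-Cre, a Cre recombinase expressed from the lysozyme M locus and so active in the myeloid lineage as a whole. *Keap1* encodes the adaptor protein that marks the transcription factor Nrf2 for degradation. Cells were left untreated (Con), given LPS and IFNγ for 6 h (M1) or given IL-4 for 6 h (M2), after M-CSF had been withdrawn from all of them. Both genotypes gave 1 mouse to each of 2 cultures, culture 1 from males and culture 2 from females, so that culture and sex cannot be told apart. Each of the 6 groups held 2 arrays, 1 per culture, and all Con arrays lay on slide 1, all M1 arrays on slide 2 and all M2 arrays on slide 3, so that stimulus and slide cannot be told apart, whereas the genotypes were compared within a slide.

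*Spi1* encodes PU.1, an ETS factor that opens myeloid enhancers, and *Runx1* encodes a factor that acts upstream of PU.1 during blood formation. The C/EBP factors bind many of the same enhancers: C/EBPα commits progenitors to the myeloid path and restrains proliferation, while C/EBPβ and C/EBPδ are known for driving cytokine and acute-phase genes in inflamed macrophages. c-Maf, the product of *Maf*, is a large MAF protein known for holding macrophages out of the cell cycle and for driving *Il10*, Id2 binds E proteins and keeps them from DNA, and MITF and TFEC are members of the MiT/TFE family known from osteoclasts and lysosomal genes.

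A value is the log2 of the background-subtracted signal of a probe, less the 75th percentile of its array. A value of 0 is thus the 75th percentile, 1 unit is a doubling of signal, and the level of a gene is compared between groups but not with the level of another gene. Log2 differences are given with the SE of limma, and the p-value was adjusted over all genes tested. All 15 probes were well above background on the 12 arrays, except 1 dim *Runx1* probe whose spot was left out as an outlier on the KpCKO M2 array of culture 1, so that each member had a value in every sample.

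*Keap1* lay at 3.26 and 3.16 in WT Con against 1.79 and 1.71 in KpCKO Con, at 4.28 and 4.80 in WT M1 against 2.61 and 3.04 in KpCKO M1, and at 3.06 and 2.85 in WT M2 against 1.36 and 0.94 in KpCKO M2. It was lower in KpCKO on every slide and stayed well above background there (over the stimuli −1.66, limma adjusted p = 0.000705). Where its probe lies relative to the floxed part was not examined, and *Nqo1*, a known Nrf2 target, was higher in KpCKO (3.42, adjusted p = 1.4e-06). Signal was dimmest in WT M1, with a 75th percentile of 757 in culture 1 and 548 in culture 2, against 787 to 1166 on the other 10 arrays. All 7 macrophage markers with a probe were well above background on the 12 arrays, and their summed signal (linear, relative to the 75th percentile) was 583 to 639 in WT Con against 405 to 469 in KpCKO Con, and 833 to 1041 in WT M1 against 560 to 662 in KpCKO M1. In bulk RNA, fewer cells of a type and less RNA per cell cannot be told apart. *Itgax* (CD11c), an integrin of dendritic cells and of some macrophages, lay at 0.35 and 0.49 in WT Con against 3.88 and 2.93 in KpCKO Con (adjusted p = 0.0108). The summed dendritic cell markers, a sum that *Itgax* itself dominates, were 1.52 to 1.59 against 7.90 to 15.1, and none of the other 4 of these markers passed the test of genotype in any stimulus. The defining dendritic marker *Flt3* lay between −5.59 and −4.20 on the 12 arrays and *Zbtb46* was well above background on 10 of them. The defining markers *Elane* (neutrophils), *Ms4a1* (B cells), *Cd3d* (T cells) and *Ms4a2* (mast cells) were not well above background on any array. All 4 fibroblast markers were well above background on the 12 arrays, with *Col1a1* at 2.17 to 3.69 and *Col1a2* at 3.99 to 5.27. Their summed signal was 33.96 to 40.17 in WT Con against 27.34 to 52.11 in KpCKO Con. In M1 it was 31.3 to 33.52 in WT against 22.93 to 40.05 in KpCKO. Which cells gave this signal was not tested.

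The promoters of 3 members are shown because these genes had the largest fall (*Cebpa*) and the largest rise (*Tfec*) with M1 stimulation in WT among the members, and because *Cebpb*, in the same family as *Cebpa*, rose where *Cebpa* fell. Each run covers 250 bases before to 50 bases after the start site in RefSeq on GRCm38.p6, 5′ to 3′ along the strand of the gene, and capitals mark matches, on either strand, to the motifs named beneath.
*Cebpa*, chr7:35119043-35119342, plus strand: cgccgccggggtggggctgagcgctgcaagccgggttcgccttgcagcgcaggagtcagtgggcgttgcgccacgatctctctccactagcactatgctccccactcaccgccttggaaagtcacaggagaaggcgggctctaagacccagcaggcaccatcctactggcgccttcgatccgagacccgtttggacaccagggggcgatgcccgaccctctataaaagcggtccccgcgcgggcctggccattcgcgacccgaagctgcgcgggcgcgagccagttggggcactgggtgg
*Cebpb*, chr2:167688665-167688964, plus strand: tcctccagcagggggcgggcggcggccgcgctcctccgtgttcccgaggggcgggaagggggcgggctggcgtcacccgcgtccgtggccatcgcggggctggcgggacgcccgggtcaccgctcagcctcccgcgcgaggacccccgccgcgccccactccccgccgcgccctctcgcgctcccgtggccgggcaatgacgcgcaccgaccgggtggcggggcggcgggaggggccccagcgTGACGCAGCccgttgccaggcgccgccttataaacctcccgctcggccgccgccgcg
*Tfec*, chr6:16898392-16898691, minus strand: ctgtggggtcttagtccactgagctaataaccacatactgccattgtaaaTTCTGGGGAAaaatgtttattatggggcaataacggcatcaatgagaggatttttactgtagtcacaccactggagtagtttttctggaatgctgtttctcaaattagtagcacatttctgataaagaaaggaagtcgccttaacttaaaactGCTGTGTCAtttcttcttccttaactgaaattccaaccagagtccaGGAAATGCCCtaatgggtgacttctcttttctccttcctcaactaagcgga
The motifs searched were TGACNNNGC and TGAGNNNGC for the antioxidant response element bound by Nrf2, GGG and TTTCC with 2 bases between them for NF-κB, TTC and GAA with 4 bases between them for STAT6, TTGCNNAA for C/EBP, GAGGAAGT for PU.1 and TGACGTCA for CREB. No motif of these matched in the *Cebpa* window. The *Cebpb* window held TGACNNNGC at −7 from the start site, letters found in 12.4% of all 32851 promoter windows. The *Tfec* window held the STAT6 motif at −200, TGACNNNGC at −47 and the NF-κB motif at −1, and the first and the last of these are found in 6.95% and 1.63% of all windows. The *Cebpb* window had a GC content of 80.7% and 50 CpG dinucleotides, the *Cebpa* window 67.3% and 29, and the *Tfec* window 40.3% and 3, against a median of 52.7% GC over all windows. *Id2* and *Mitf* also had a window with TGACNNNGC, *Id2* and *Runx1* 1 with TGAGNNNGC, and *Mitf* windows held TTGCNNAA and TGACGTCA. The last 3 of these motifs are found in 17.6%, 10.8% and 1.79% of all windows. *Mitf* and *Runx1* had more than 1 window, each of which could hold a match. RefSeq windows were matched for 6 of the 9 members. *Spi1*, *Cebpd* and *Maf* had no entry. A match of letters describes the window and is not evidence of a bound site.

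M1 stimulation changed 8 of the 9 members in WT. *Spi1*, *Cebpb*, *Cebpd*, *Id2*, *Mitf* and *Tfec* rose, *Cebpa* and *Runx1* fell, and *Maf* did not pass the test. The background was high, since 63.2% of 22356 genes passed the same test in this comparison, 34.5% higher and 28.7% lower, and the median log2 difference of the members was 1.43 against 0.13 for all genes. In KpCKO, 7 of 9 passed, 5 higher and 2 lower (background 50.2%, 24.8% higher and 25.4% lower), with a median of 1.01 against 0.03. With IL-4, 4 of 9 members passed in WT, 2 higher and 2 lower (background 16.8%, 8.62% higher and 8.2% lower), with a median of 0.19 against −0.01, and 3 of 9 in KpCKO, 2 higher and 1 lower (background 10.2%, 5.68% higher and 4.54% lower), with a median of 0.43 against 0.01. Between the stimuli, M1 against M2, 8 of 9 passed in WT (background 63%) and 6 of 9 in KpCKO (background 51.4%). The comparisons of M1 and of M2 with Con share the Con arrays. Under quantile normalization the median of all genes in M1 against Con in WT moved from 0.13 to −0.08, and no member that passed the test in any of these comparisons changed its direction.

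**Figure D1:**
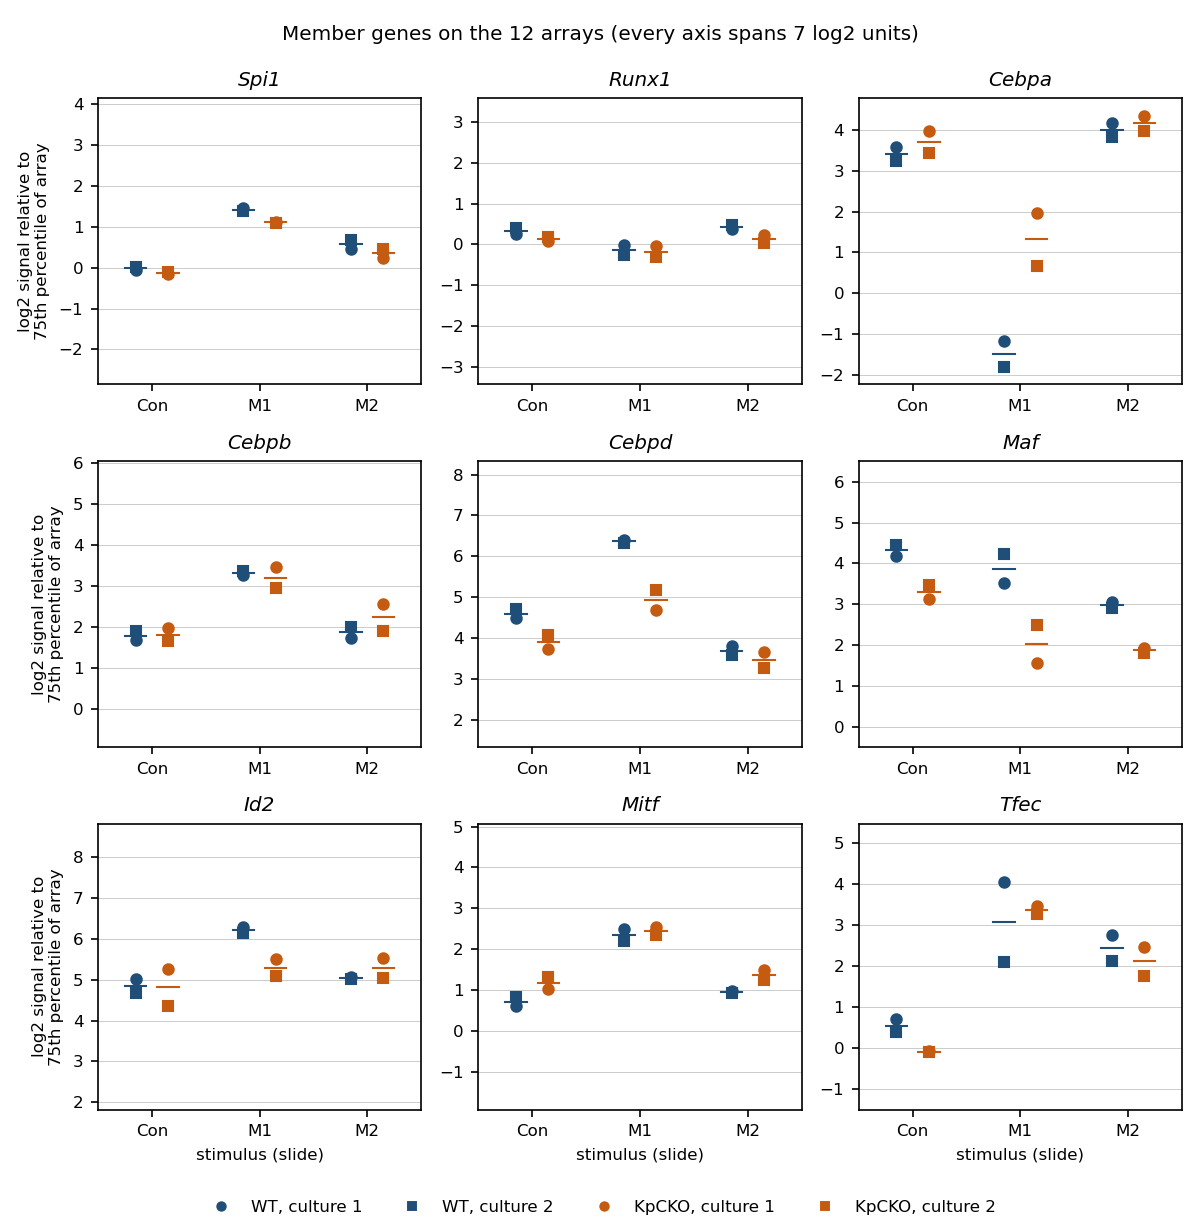
Log2 signal relative to the 75th percentile of the array (y axis) for the 9 members in Con, M1 and M2 (x axis, 1 slide each), with 1 point per array, WT in blue and KpCKO in orange, circles for culture 1, squares for culture 2 and a bar for the group mean. *Cebpa* is lowest in WT M1, at −1.17 and −1.81, and the distance from its lowest to its highest array is 6.16, against 0.79 for *Runx1*.

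**Figure D2:**
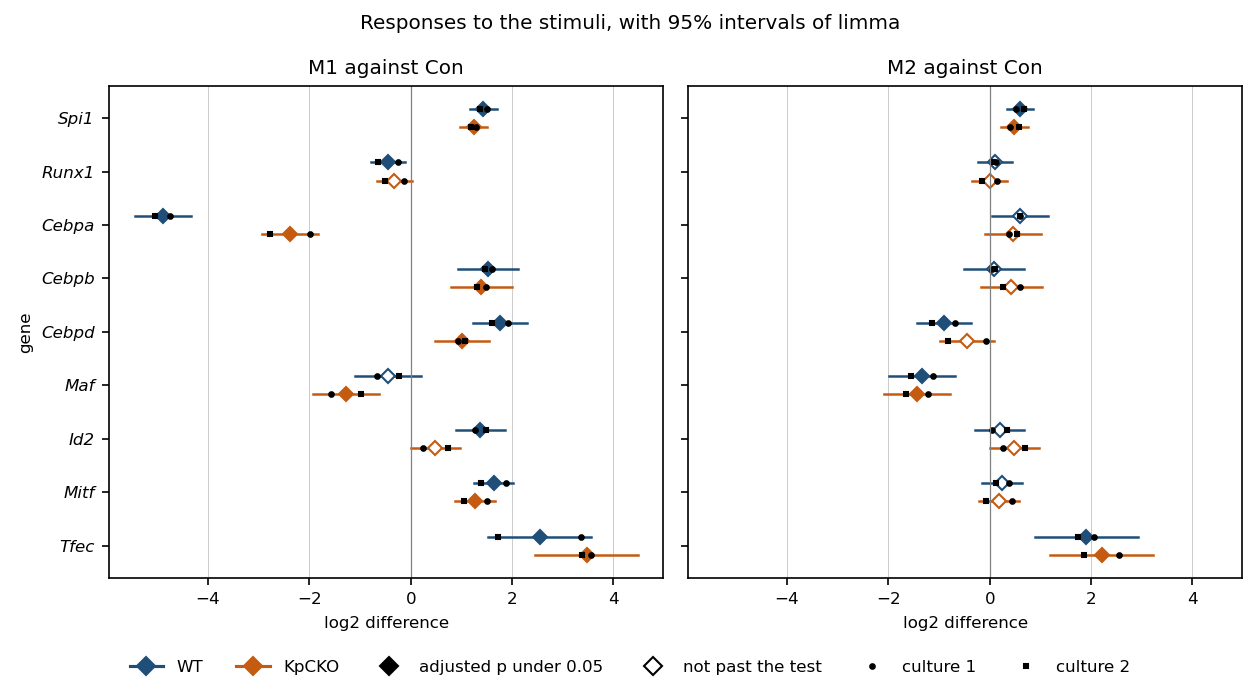
Log2 differences of M1 (left) and M2 (right) from Con (x axis) for the 9 members (y axis) in WT (blue) and KpCKO (orange), with 95% intervals of limma, filled diamonds where the adjusted p was under 0.05 and small marks for each culture. *Cebpa* stands at −4.89 in WT and −2.38 in KpCKO with M1, and *Tfec* is right of 0 in every column.

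*Spi1* rose with both stimuli and in both genotypes. In WT it lay at −0.05 and 0.01 in Con, 1.45 and 1.38 with M1 and 0.47 and 0.69 with M2, and in KpCKO at −0.16 and −0.10 in Con, 1.13 and 1.09 with M1 and 0.24 and 0.47 with M2 (culture 1, then culture 2). The M1 groups were highest, the M2 groups lay between them and Con with no overlap with either, and the cultures of a group differed by at most 0.22. The M1 rise was 1.43 ± 0.11 in WT (SE, n = 2 per group, 2.70-fold, limma adjusted p = 5.44e-05) and 1.24 ± 0.11 in KpCKO (adjusted p = 0.000165). The M2 rise was 0.59 in WT (1.51-fold, adjusted p = 0.0148) and 0.49 in KpCKO (1.40-fold, adjusted p = 0.0392). *Spi1* was also higher in M1 than in M2, by 0.84 in WT (adjusted p = 0.000569) and 0.76 in KpCKO (adjusted p = 0.00134). Neither M2 rise passed the test once any 1 of its 4 arrays was left out. In order from the lowest, the groups were KpCKO Con, WT Con, KpCKO M2, WT M2, KpCKO M1 and WT M1, and of the neighbours only the M2 groups overlapped.

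Of 9 ETS relatives of PU.1, 3 rose and 2 fell with M1 in WT (median 0.58, background 63.2%). In KpCKO 3 rose and 1 fell (median 0.10, background 50.2%), so neither count exceeded the share of all genes. *Etv6*, an ETS repressor needed in blood stem cells, rose by 2.77 in WT and 2.25 in KpCKO, and *Ets2* by 2.19 and 1.74, whereas *Fli1*, an ETS factor of megakaryocytes and endothelium, fell by 3.64 and 3.25. The others that passed in WT were *Elf4* (0.86) and *Ets1* (−0.84), named after their values were seen. Of 7 genes known to be driven by PU.1, 4 rose and none fell with M1 in WT (median 0.51, background 63.2%). There *Fcgr1*, a high-affinity IgG receptor, rose by 1.54 and *Cd14*, the LPS co-receptor, by 1.28. With M2 in WT, 1 rose and 4 fell (median −0.43, background 16.8%), although *Spi1* rose there. *Cd14* fell by 2.24 and *Fcgr1* by 1.19, and *Csf3r*, the G-CSF receptor, rose by 1.08. *Csf1r*, *Itgam*, *Fcgr1* and *Cd14* of this list are also among the macrophage markers.

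*Runx1* moved least of the members. The values of *Runx1* in WT were 0.24 and 0.40 in Con, −0.01 and −0.25 with M1 and 0.38 and 0.47 with M2, and in KpCKO 0.09 and 0.19 in Con, −0.05 and −0.32 with M1 and 0.24 and 0.03 with M2. Both M1 groups lay below 0 on every array and the other 4 groups above it. The fall with M1 in WT was 0.45 on the log2 scale (−0.45 ± 0.14, 1.37-fold, adjusted p = 0.0285), and M1 was also below M2 in WT (−0.56, adjusted p = 0.0125). In KpCKO the M1 difference was −0.32 (adjusted p = 0.102). The fall in WT did not pass without WT Con culture 2 (−0.32, adjusted p = 0.188) or without WT M1 culture 2 (−0.34, adjusted p = 0.15), and that against M2 not without WT M1 culture 2 (−0.45, adjusted p = 0.0765) or WT M2 culture 2 (−0.46, adjusted p = 0.0863). The dimmer *Runx1* probe lay at −1.47 and −1.72 in WT Con and at −0.74 and −1.45 in WT M1, so that it was higher in M1 in both cultures (0.50, adjusted p = 0.105). The probes thus disagreed in direction, and with the mean of both probes the difference was 0.02. Of 5 *RUNX* relatives and partners, 3 rose and 1 fell with M1 in WT (median 1.05, background 63.2%). *Runx3* rose by 2.90, *Cbfb*, the shared partner of RUNX proteins, by 1.05 and *Runx1t1* by 1.09, and *Cbfa2t3*, a corepressor, fell by 2.09. In KpCKO 2 rose and 2 fell (background 50.2%), with *Cbfa2t3* at −1.60. *Cbfb*, *Runx1t1* and the KpCKO members *Runx3* (1.48), *Cbfb* (0.72) and *Runx2* (−0.87) were named after their values were seen.

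*Cebpa* had the largest response of the members. In WT it lay at 3.57 and 3.23 in Con, −1.17 and −1.81 with M1 and 4.17 and 3.83 with M2, and in KpCKO at 3.96 and 3.44 in Con, 1.96 and 0.67 with M1 and 4.35 and 3.97 with M2. The M1 arrays were lowest in both genotypes, WT M1 lay below KpCKO M1 without overlap, and the other 4 groups overlapped with their neighbours in order. The fall with M1 was 4.89 on the log2 scale in WT (SE 0.24, 29.7-fold, limma adjusted p = 9.83e-06) and 2.38 in KpCKO (5.21-fold, adjusted p = 0.000256). The dimmer *Cebpa* probe fell by 4.25 in WT and 2.22 in KpCKO. Against M2, *Cebpa* was 45-fold lower in WT M1 (−5.49, adjusted p = 7.01e-06) and 7.18-fold lower in KpCKO M1 (−2.84, adjusted p = 0.00012). With IL-4 alone the differences were 0.60 in WT (adjusted p = 0.131) and 0.46 in KpCKO (adjusted p = 0.263), positive in both cultures of each genotype. Both M1 falls passed the test without any 1 of the arrays compared.

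*Cebpb* moved the other way with M1 and did not pass the test with IL-4. The values of *Cebpb* in WT were 1.68 and 1.90 in Con, 3.28 and 3.36 with M1 and 1.73 and 2.01 with M2, and in KpCKO 1.97 and 1.66 in Con, 3.46 and 2.96 with M1 and 2.57 and 1.91 with M2. The M1 arrays of both genotypes lay above all others and overlapped with each other. The rise with M1 was 1.53 ± 0.25 in WT (2.88-fold, adjusted p = 0.00164) and 1.40 ± 0.25 in KpCKO (2.63-fold, adjusted p = 0.00343). Its M2 differences were 0.08 in WT (95% interval −0.52 to 0.67) and 0.43 in KpCKO (−0.17 to 1.02). M1 was above M2 by 1.45 in WT (adjusted p = 0.00206) and by 0.97 in KpCKO (adjusted p = 0.016), the latter not without KpCKO M1 culture 1 (0.76, adjusted p = 0.0973) or KpCKO M2 culture 2 (0.66, adjusted p = 0.11).

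*Cebpd* rose with M1 and was lowest with IL-4. In WT it lay at 4.48 and 4.71 in Con, 6.41 and 6.32 with M1 and 3.80 and 3.58 with M2, and in KpCKO at 3.74 and 4.08 in Con, 4.68 and 5.16 with M1 and 3.66 and 3.26 with M2. WT M1 stood above all other arrays, and KpCKO M1 reached only the level of WT Con, with which it overlapped. The M1 rise was 1.77 in WT (3.40-fold, adjusted p = 0.000491) and 1.01 in KpCKO (2.01-fold, adjusted p = 0.00871). The latter did not pass without KpCKO Con culture 1 (0.84, adjusted p = 0.0625), without KpCKO M1 culture 2 (0.75, adjusted p = 0.0624) or under quantile normalization. With IL-4 it fell by 0.91 in WT (1.87-fold, adjusted p = 0.0371), a call that was lost without any 1 of the 4 arrays, and was at −0.45 in KpCKO (adjusted p = 0.251). M1 exceeded M2 by 2.67 in WT (6.37-fold, adjusted p = 7.66e-05) and by 1.46 in KpCKO (2.75-fold, adjusted p = 0.00166).

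Of the C/EBP relatives *Cebpg* and *Ddit3*, *Cebpg* fell with M1, by 0.66 in WT and 0.46 in KpCKO, and *Cebpe* had no probe. Of 6 genes known to be driven by C/EBP factors, 5 rose with M1 in WT (median 4.49, background 63.2%) and 4 in KpCKO (median 3.57, background 50.2%). The cytokine *Il6* rose by 13.17 in WT and 9.72 in KpCKO, the acute-phase gene *Saa3* by 8.96 and 8.34, and *Ptges*, the enzyme that makes prostaglandin E2, by 4.18 and 3.69. In WT Con *Il6* lay at −6.39 and −5.39. The lowest signal well above background on those arrays was −6.995 and −6.875, so the size of its rise rests on dim values. *Csf3*, which encodes G-CSF, was not well above background in Con and stood at least 14.2-fold higher with M1 in WT. *Lcn2*, an iron-sequestering protein, rose by 3.43 in WT and 3.44 in KpCKO, the former named after its value was seen. *Arg1*, the arginase of IL-4-stimulated macrophages, rose with IL-4, by 10.38 in WT and 10.48 in KpCKO, and was at least 1020-fold lower in WT M1 than in WT M2. Its Con values were also dim, at −6.68 and −5.69 in WT and −6.80 and −6.53 in KpCKO.

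*Maf* fell with IL-4 in both genotypes and with M1 in KpCKO. The values of *Maf* in WT were 4.19 and 4.45 in Con, 3.51 and 4.22 with M1 and 3.07 and 2.90 with M2, and in KpCKO 3.14 and 3.47 in Con, 1.56 and 2.49 with M1 and 1.92 and 1.82 with M2. Every KpCKO array lay below both WT arrays of the same stimulus, and WT M1 overlapped with WT Con. The fall with IL-4 was 1.33 in WT (2.52-fold, adjusted p = 0.0202) and 1.43 in KpCKO (2.70-fold, adjusted p = 0.0239). The WT call remained only without WT M2 culture 1, and the KpCKO call was lost without any 1 of its 4 arrays. With M1 it fell by 1.28 in KpCKO (2.43-fold, adjusted p = 0.00729), and the WT difference was −0.45 (adjusted p = 0.187), which passed, with the same sign and over 2 times as large, under quantile normalization (adjusted p = 0.0136). *Maf* was higher in M1 than in M2 in WT (0.88, adjusted p = 0.0258), but not without WT M1 culture 2 (0.65, adjusted p = 0.15) or WT M2 culture 2 (0.59, adjusted p = 0.172), and in KpCKO the difference was 0.16 (adjusted p = 0.666).

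Small MAF genes, whose products pair with Nrf2, rose with M1 in both genotypes. *Maff* and *Mafk* rose by 5.91 and 2.25 in WT and by 5.30 and 1.65 in KpCKO. *Mafg*, the remaining small MAF gene, rose by 0.44 and 0.59 and is named after its values were seen.

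*Id2* rose with M1 in WT. In WT it lay at 5.01 and 4.67 in Con, 6.28 and 6.15 with M1 and 5.06 and 5.01 with M2, and in KpCKO at 5.27 and 4.35 in Con, 5.52 and 5.08 with M1 and 5.54 and 5.05 with M2. WT M1 stood above the other 10 arrays, whose groups overlapped with their neighbours in order. The rise in WT was 1.38 ± 0.20 (2.59-fold, adjusted p = 0.000965), and M1 exceeded M2 by 1.18 (2.27-fold, adjusted p = 0.00194). In KpCKO the M1 difference was 0.49 (95% interval 0.01 to 0.96, adjusted p = 0.0845), the M2 difference 0.48 (adjusted p = 0.18), and M1 and M2 differed by 0.00 (−0.48 to 0.48). Of 6 ID relatives and E proteins, which Id2 binds, 3 fell and none rose with M1 in WT (median −0.96, background 63.2%). In KpCKO 4 fell (median −1.28, background 50.2%). *Id3* fell by 2.25 and 2.19, the E protein gene *Tcf12* by 1.53 and 1.28 and the E protein gene *Tcf3* by 0.62 and 0.54, and *Id1* fell by 1.28 in KpCKO. *Tcf3* and *Id1* were named after their values were seen.

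*Mitf* rose with M1 in both genotypes. The values of *Mitf* in WT were 0.60 and 0.82 in Con, 2.49 and 2.21 with M1 and 0.98 and 0.94 with M2, and in KpCKO 1.04 and 1.31 in Con, 2.54 and 2.36 with M1 and 1.49 and 1.24 with M2. The M1 arrays were all above the others, and the genotypes overlapped within M1. The rise was 1.63 in WT (SE 0.17, adjusted p = 0.000171) and 1.27 in KpCKO (2.42-fold, adjusted p = 0.000797), and the dimmer *Mitf* probe rose by 1.51 and 1.04. With IL-4 the differences were 0.25 in WT (95% interval −0.15 to 0.64) and 0.19 in KpCKO (−0.20 to 0.58). M1 exceeded M2 by 1.39 in WT (adjusted p = 0.000353) and 1.08 in KpCKO (adjusted p = 0.0016).

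*Tfec* rose with both stimuli. In WT it lay at 0.69 and 0.38 in Con, 4.06 and 2.11 with M1 and 2.76 and 2.13 with M2, and in KpCKO at −0.09 and −0.10 in Con, 3.46 and 3.28 with M1 and 2.47 and 1.76 with M2. All stimulated arrays lay above all Con arrays, and the arrays of WT M1 lay 1.95 apart, with both arrays of KpCKO M1 and of WT M2 between them. The rise with M1 was 2.55 ± 0.43 in WT (5.84-fold, adjusted p = 0.0018) and 3.47 ± 0.43 in KpCKO (11.1-fold, adjusted p = 0.000634). With IL-4 it was 1.91 in WT (3.75-fold, adjusted p = 0.0268) and 2.21 in KpCKO (4.62-fold, adjusted p = 0.0249), and neither M2 call held without any 1 of its 4 arrays. Left out singly, the WT M1 arrays gave an M1 rise of 3.34 (without culture 2, adjusted p = 0.000226) or 1.75 (without culture 1, adjusted p = 0.00155).

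The *Tfec* probes differed in this spread. The brighter probe exceeded the dimmer one by 1.61 on the WT M1 array of culture 2 and by 3.01 to 3.30 on the other 11 arrays. In WT the dimmer probe lay at −2.51 and −2.65 in Con, 0.81 and 0.50 with M1 and −0.36 and −0.99 with M2, and in KpCKO at −3.14 and −3.15 in Con, 0.34 and 0.13 with M1 and −0.83 and −1.25 with M2. On this probe no groups overlapped between stimuli, and M1 was highest. Its M1 rise was 3.23 in WT (9.39-fold, adjusted p = 8.71e-06) and 3.38 in KpCKO, its M2 rise 1.90 in WT (adjusted p = 0.000952) and 2.10 in KpCKO (adjusted p = 0.00121). M1 exceeded M2 by 1.33 in WT (adjusted p = 0.00028) on the dimmer probe and by 0.64 (adjusted p = 0.228) on the brighter probe, where it was 1.43 (adjusted p = 0.00375) with WT M1 culture 2 left out and −0.15 with WT M1 culture 1 left out. In KpCKO the brighter probe gave 1.26 (adjusted p = 0.0435), which was lost without any 1 of its 4 arrays (0.99 to 1.53), and the dimmer probe 1.28 (adjusted p = 0.000519).

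**Figure D3:**
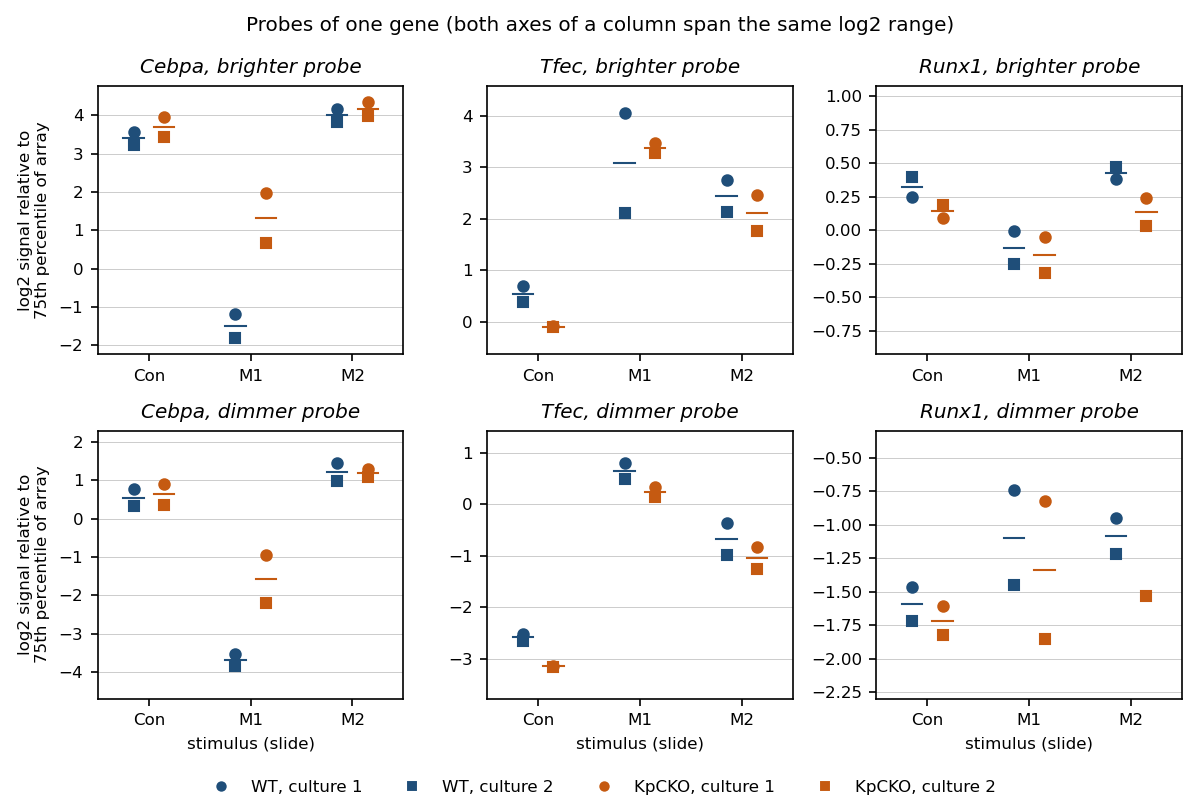
Log2 signal relative to the 75th percentile of the array (y axis) for the brighter (top) and dimmer (bottom) probe of *Cebpa*, *Tfec* and *Runx1* in Con, M1 and M2 (x axis), with 1 point per array, colours and shapes for genotype and culture, and a bar for the group mean. The square of WT M1 for *Tfec* lies at 2.11 in the brighter probe, well below its neighbours, and at 0.50 in the dimmer probe, beside them, and the *Runx1* probes move in opposite directions from Con to M1 in WT.

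Of the MiT/TFE relatives *Tfeb* and *Tfe3*, neither passed the test with M1 in either genotype, and *Tfeb* rose with IL-4 in WT (0.62, adjusted p = 0.0383). Of 7 genes known to be driven by MITF or TFEC in osteoclasts or macrophages, 2 rose and 4 fell with M1 in WT (median −0.66, background 63.2%). In KpCKO 1 rose and 3 fell (median −0.43, background 50.2%), although *Mitf* and *Tfec* rose with M1 in both genotypes. *Clcn7*, a chloride transporter of lysosomes, rose by 2.40 and 2.30. *Atp6v0d2*, a subunit of the proton pump, fell by 2.44 and 2.27 and the protease gene *Ctsk* by 1.55 and 1.89. *Acp5*, the tartrate-resistant acid phosphatase, rose by 1.44 in WT. None of the 7 passed with IL-4 in either genotype (background 16.8% in WT and 10.2% in KpCKO).

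Loss of *Keap1* went with differences in 4 members under M1 stimulation, and none passed the test in Con or M2. In M1, *Cebpa* was higher in KpCKO, and *Cebpd*, *Maf* and *Id2* were lower, against a background of 16% of 22354 genes called (7.43% higher and 8.58% lower), and the median of the members was −0.11 against −0.09 for all genes. In Con 0 of 9 members passed by limma (background 2.22%), with 3 at an unadjusted p under 0.05, and in M2 0 of 9 passed (background 1.93%), with 2 at an unadjusted p under 0.05. Averaged over the stimuli, *Cebpa* was higher and *Cebpd* and *Maf* lower in KpCKO, 3 of 9 against a background of 17.2% (8.61% higher and 8.54% lower). Under quantile normalization the share of called genes that were higher in KpCKO M1 moved from 46.4% to 60%, and *Cebpa*, *Cebpd*, *Maf* and *Id2* kept their directions. With the 4 M1 arrays fitted alone, neither these members nor any other gene passed.

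**Figure D4:**
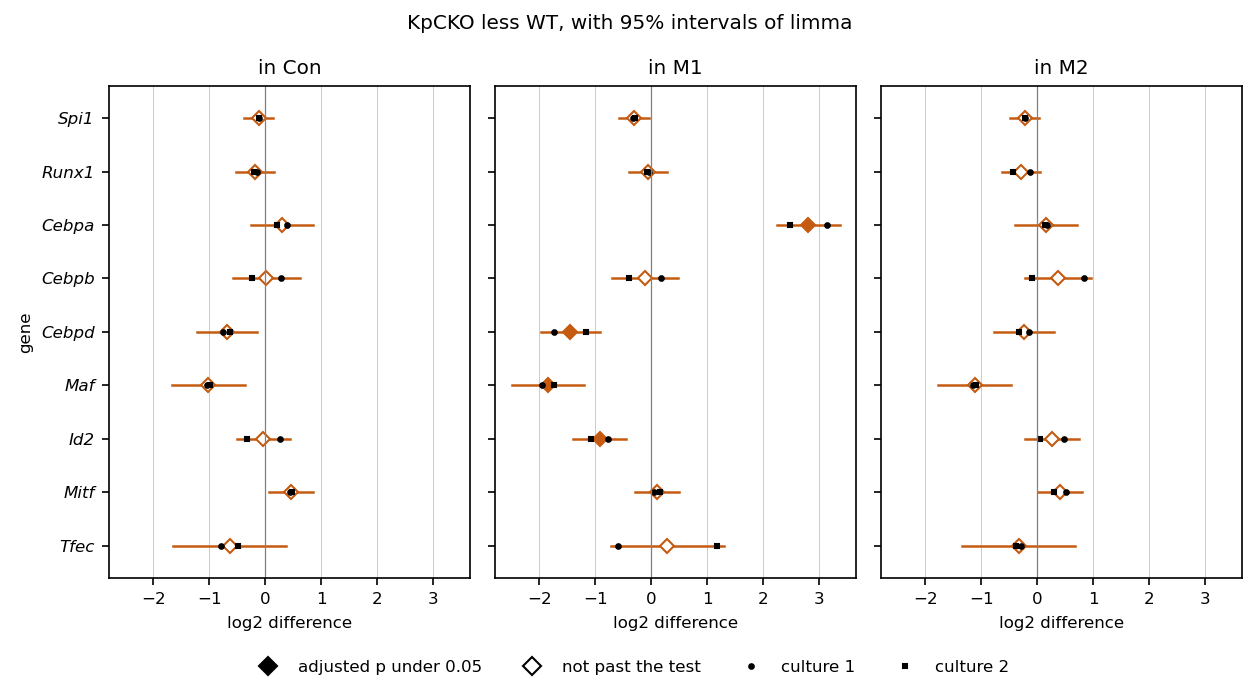
Log2 differences, KpCKO less WT (x axis), for the 9 members (y axis) in Con, M1 and M2, with 95% intervals of limma, filled diamonds where the adjusted p was under 0.05 and small marks for each culture. In M1 *Cebpa* stands at 2.81 and *Maf* at −1.84, and *Maf* is left of 0 in all 3 columns.

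The M1 difference of *Cebpa* came from WT values of −1.17 and −1.81 against 1.96 and 0.67 in KpCKO. The higher WT array lay 1.84 below the lower KpCKO array. The difference was 2.81 ± 0.24 (95% interval 2.25 to 3.37, 7.00-fold, adjusted p = 0.0014), at 3.14 in culture 1 and 2.48 in culture 2, and the dimmer probe gave 2.12 (adjusted p = 0.00328). It passed without each of the 4 M1 arrays in turn (2.38 to 3.23) and did not pass when the M1 arrays alone were fitted (adjusted p = 0.159). In Con the difference was 0.30 (−0.26 to 0.86) and in M2 0.16 (−0.40 to 0.72). The M1 response of *Cebpa* was smaller in KpCKO by 2.51 (1.72 to 3.30, cultures 2.75 and 2.27), and the test of this difference gave an adjusted p of 0.0677 in a comparison in which 16 of 22354 genes passed (background 0.0716%). It passed with the variances trended and robust (adjusted p = 0.0291) and with genes kept on all 12 arrays (0.0368). Neither *Cebpa* nor any other gene passed it under the normexp background correction or with no filter on dim probes. The difference in response was 2.54 without WT M1 culture 1 and 2.94 without KpCKO M1 culture 2. No member passed the test of the difference in the M1 response, with 3 at an unadjusted p under 0.05, nor in the M2 response (background 0.00894%), with none.

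*Maf* lay lower in KpCKO on all 3 slides. The differences were −1.05 and −0.98 in Con, −1.95 and −1.73 in M1 and −1.15 and −1.09 in M2, so that both cultures showed the direction each time. The means were −1.02 in Con (adjusted p = 0.14), −1.84 in M1 (3.59-fold, adjusted p = 0.00927) and −1.12 in M2 (adjusted p = 0.12), and −1.32 over the stimuli (2.50-fold, adjusted p = 0.00264). The M1 call did not pass without WT M1 culture 2 (−1.61, adjusted p = 0.0559) or KpCKO M1 culture 1 (−1.48, adjusted p = 0.0521), whereas the call over the stimuli passed under every alternative run. The dimmer *Maf* probe gave −1.60 in M1 (adjusted p = 0.00739).

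*Cebpd* in M1 was 6.41 and 6.32 in WT against 4.68 and 5.16 in KpCKO, with no overlap. The difference was −1.44 (2.72-fold, adjusted p = 0.0109) in M1 and −0.79 over the stimuli (1.72-fold, adjusted p = 0.0089), with −0.69 in Con (adjusted p = 0.226) and −0.23 in M2 (adjusted p = 0.73). The M1 call was lost without KpCKO M1 culture 1 (−1.19, adjusted p = 0.0657). *Id2* in M1 was 6.28 and 6.15 in WT against 5.52 and 5.08 in KpCKO, also with no overlap. Its difference was −0.92 (1.89-fold, adjusted p = 0.0292) on the brighter probe and −1.17 (adjusted p = 0.0119) on the dimmer one. The *Id2* call was lost without WT M1 culture 2 (−0.76, adjusted p = 0.141), KpCKO M1 culture 1 (−0.94, adjusted p = 0.122) or KpCKO M1 culture 2 (−0.89, adjusted p = 0.0871), and under quantile normalization (−0.67, adjusted p = 0.0547).

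On its brightest or only probe, none of the remaining members passed a test of genotype before the settings were varied. *Spi1* was lower in KpCKO in both cultures on every slide, by 0.11 and 0.12 in Con, 0.32 and 0.29 in M1 and 0.22 and 0.22 in M2 (over the stimuli −0.21, adjusted p = 0.0635). *Mitf* was higher in both cultures on every slide, with 0.46 in Con, 0.10 in M1 and 0.40 in M2 (over the stimuli 0.32, adjusted p = 0.0615). *Cebpb* differed by 0.10 over the stimuli (95% interval −0.25 to 0.44) and *Runx1* by −0.17 (−0.37 to 0.02). The cultures of *Tfec* disagreed in M1, at −0.60 and 1.17, where the brighter probe of WT culture 2 was low (0.29 for both, limma adjusted p = 0.667). Without WT M1 culture 1 the difference was 1.08, but the WT M1 array left was then the low one. On the dimmer probe, M1 lay at 0.81 and 0.50 in WT against 0.34 and 0.13 in KpCKO. The dimmer *Tfec* probe was lower in KpCKO in both cultures on every slide (over the stimuli −0.45, adjusted p = 0.0169).

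Other genes moved with genotype beside the members. *Itgax* was higher in KpCKO M1 by 1.37 (adjusted p = 0.0437), at 2.69 and 2.46 in WT against 4.24 and 3.65, and *Adgre1*, which encodes F4/80, was lower by 0.39 (−0.39, adjusted p = 0.0407). Of the 7 macrophage markers, 4 were lower and none higher in KpCKO M1 (median −0.50, background 16%), and *Csf1r* lay at 0.11 (adjusted p = 0.643). The part of these shifts in the differences of the members was not tested. Of the 9 ETS relatives, 4 were lower and none higher in KpCKO M1 (median −0.39, background 16%). *Spic*, the ETS factor of iron-recycling macrophages, was lower in Con (−2.11, adjusted p = 0.0279), M1 (−2.66, adjusted p = 0.00508) and M2 (−2.02, adjusted p = 0.033), and *Ets2* was lower in M1 (−1.42), with *Elf1* (−0.73) and *Etv6* (−0.62) named after their values were seen. Of the genes driven by PU.1, 4 of 7 were lower in KpCKO M1 (median −0.65, background 16%). They were *Msr1*, a scavenger receptor, at −1.58, *Cd14* at −1.33, *Fcgr1* at −1.20 and, named after its value was seen, *Itgam* at −0.65.

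Of the 6 genes driven by C/EBP factors, 3 passed the test in M1 between the genotypes, all on the lower side in KpCKO (16% of all genes passed). *Il6* alone of these was well above background on all 4 arrays. *Il6* lay at 6.66 and 7.89 in WT M1 against 3.18 and 4.96 in KpCKO M1 (−3.21, adjusted p = 0.0101). *Csf3* lay at −3.06 and −3.15 in WT M1 and was well above background on 1 of the KpCKO M1 arrays, at −6.01 (adjusted p = 0.0149), so no size is given. *Arg1*, named after its value was seen, was not well above background in M1 of either genotype, so its call rests on no measured level. Of the small MAF genes, *Mafg* (0.61) was higher and *Mafk* (−0.41) lower in KpCKO M1, both named after their values were seen. Of the 7 genes driven by MITF or TFEC, 3 were higher and none lower in KpCKO M1 (median 0.44, with 16% of all genes called). *Atp6v0d2* was higher by 2.16 (adjusted p = 0.0185) and *Oscar*, an osteoclast receptor, by 1.34 (adjusted p = 0.0435), with *Ostm1* (0.46) named after its value was seen. Osteoclast markers moved with these genes. *Dcstamp*, needed for cell fusion, was higher in KpCKO in Con (1.40), M1 (1.06) and M2 (1.34), *Ocstamp* was higher in M1 (1.92, adjusted p = 0.0352), and *Nfatc1*, the master factor of osteoclasts, differed by −0.12 in M1 (adjusted p = 0.679). The summed signal of the 4 osteoclast markers was 3.53 to 4.45 in WT M1 and 4.82 to 7.09 in KpCKO M1, and *Calcr* was well above background on 2 of the 12 arrays. The part of these shifts in the differences of *Mitf*, *Tfec* and the genes they drive was not tested. No ID relative or E protein passed the test of genotype in Con, M1 or M2, where 2.22%, 16% and 1.93% of all genes passed.

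Of 13 other factors of myeloid fate, 9 rose and 2 fell with M1 in WT (median 1.46, 63.2% of all genes called). In KpCKO 4 rose and 3 fell (median 0.08, 50.2% of all genes called). *Irf8*, a partner of PU.1 in monocytes and dendritic cells, rose by 3.33 and 2.70, and *Ikzf1* by 2.22 and 1.54. *Gfi1*, a transcriptional repressor that acts in granulocytes and blood stem cells, was not well above background in Con. It stood at least 595-fold higher with M1 in WT and at least 135-fold higher with M1 in KpCKO. With IL-4, 6 rose in WT (median 1.08, 16.8% of all genes called) and 4 in KpCKO (median 0.69, 10.2% of all genes called), and none fell. The 4 with the largest rises in WT were *Egr2* (5.09 in WT, 2.50 in KpCKO), *Bhlhe40* (2.71 and 1.84), *Myc* (2.31 and 2.25) and *Klf4* (2.07 and 1.71). Between the genotypes in M1, 1 of the 13 was higher and 5 were lower in KpCKO (median −0.69, 16% of all genes called). *Egr2*, a zinc-finger factor induced by IL-4, was higher in KpCKO without a stimulus (2.98, adjusted p = 0.0326) and under M1 (2.08, adjusted p = 0.0335). *Nr4a1*, a nuclear receptor of monocytes, fell with M1 in KpCKO (−2.99) and was lower there than in WT (−2.78, adjusted p = 0.0151). The others lower in KpCKO M1 were *Myb*, a factor of blood progenitors (adjusted p = 0.0195, well above background on both WT and 1 of the KpCKO arrays, so no size is given), *Egr1* (−1.10), *Klf2* (−0.71) and *Irf8* (−0.54), of which *Egr1*, *Klf2* and *Irf8* were named after their values were seen.

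For each member, the genes with the most similar profile over the 12 arrays were sought among 12110 genes with a symbol that were well above background on every array. The highest Pearson correlations were 0.997 for *Spi1* with *Eml4*, 0.991 for *Cebpa* with *Fmnl3*, 0.979 for *Cebpb* with *Tagln2*, 0.984 for *Cebpd* with *Cd80*, 0.980 for *Maf* with *Ctla2a*, 0.956 for *Runx1* with *Zfp948*, 0.963 for *Id2* with 1110006O24Rik, 0.984 for *Mitf* with *Ttc39c* and 0.954 for *Tfec* with *Rrs1*. The next most similar genes were *Stip1* and *Cd40* for *Spi1*, *Tmem97* and *Med25* for *Cebpa*, *Cd99* and *Pth2* for *Cebpb*, *Trim56* and *Adap2* for *Cebpd*, *Ctla2b* and *Mtus1* for *Maf*, *Zfp64* and *Lfng* for *Runx1*, *Xcr1* and *Olfr744* for *Id2*, *Arrdc4* and *Slamf8* for *Mitf*, and *Rgl1* and *Armc5* for *Tfec*. No gene was the nearest of more than 1 member. The 12 arrays share slides and mice and fall into stimulus groups, so these correlations describe the profiles and carry no test.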

How the data were processed

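Cy3-labelled RNA of 12 samples was measured on Agilent mouse arrays of 1 colour. The authors extracted and deposited the background-subtracted intensity of each spot with Agilent Feature Extraction 10.7.3.1. The authors also deposited a table of log2 values. On 40749 probes these matched the values used here after centring of each probe (slopes 0.999623 to 1.00036). Files were not scaled between arrays, so the 75th percentile of log2 intensity over 41174 probes was subtracted from each array, after outlier spots were left out and the spots of a probe averaged. The number of arrays limits the precision.

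Probes were named by accession through RefSeq (26690 probes, 18217 symbols), and the probe with the highest mean stood for a gene. The genome builds of arrays and table differ, so no coordinates of probes are given. Genes had to be well above background in both cultures of at least 1 group, and the 22367 of 32301 that were so were fitted with limma 3.58.1 in R 4.3.3, with the 6 groups and the culture as terms (5 residual and 1.92 prior degrees of freedom), and Benjamini-Hochberg adjusted p held to 0.05. With 2 arrays against 2, no exact test is given, since its smallest two-sided p is 0.333. Where neither array of a group was well above background, the fold is a bound: the mean of the other group against, per array, the higher of its own signal and the lowest signal well above background. The fit was tested on simulated data.

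Culture pairs the arrays by the description of the series. Deviations of 22100 genes from their group means correlated at 0.162 to 0.597 within a culture (15 pairs of groups, median 0.342).

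The members and gene lists were chosen with earlier results of these data known. All members are named, with at most 4 genes of a list and comparison that passed with a fold above 2 in both cultures, and the 3 genes most like each member. Alternatives changed the normalization, background correction, filter on dim probes, probe rule, variance model, block and samples. Plots were made with matplotlib 3.10.9.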

Additional observations from a re-analysis of the deposited data

Results flagged for a closer look

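The genotype difference of *Id2* ran in opposite directions with M1 and with IL-4 in both cultures. KpCKO was below WT in M1, by −0.76 in culture 1 and −1.07 in culture 2, and above WT in M2, by 0.48 and 0.05. The M2 difference did not pass the test, and its interval spanned 0 (0.26, 95% interval −0.22 to 0.74). On the dimmer *Id2* probe, M2 of culture 2 lay at 4.25 in KpCKO and 4.24 in WT. The difference of the differences was −1.18, and it was not tested.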

How the results depend on the processing

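Of the 43 times that a member passed the test, 9 remained past it under every alternative: the M1 response in WT of *Spi1*, *Cebpa*, *Cebpb* and *Cebpd*, the difference between M1 and M2 in WT of *Cebpa* and *Cebpd*, and the genotype difference over the stimuli of *Cebpa*, *Cebpd* and *Maf*. Of 706 values under the alternatives, 591 kept their direction and their side of the threshold, 114 kept the direction only and 1 reversed, the M1 response of *Runx1* in WT with the mean of its probes (0.0216). Without the replicate block, 0 in place of 3 members passed with IL-4 in KpCKO, and over all genes 1191 in place of 3579 passed for genotype in M1, 1714 in place of 3764 with IL-4 in WT and 895 in place of 2286 with IL-4 in KpCKO. The block moved no other count of members by more than 1.5 times. The normexp correction left 2 of 4 members with IL-4 in WT and 1 of 3 in KpCKO, and over all genes 895 for genotype in M1, 1651 with IL-4 in WT and 674 in KpCKO. With only the groups compared, 0 members passed with IL-4 in KpCKO and 0 for genotype in M1. The methods' t-test with Benjamini-Hochberg adjustment left 4 of 8 members with M1 in WT, 3 of 8 for M1 against M2 in WT, and 0 of 4 with IL-4 in WT, 0 of 7 with M1 in KpCKO, 0 of 3 with IL-4 in KpCKO, 0 of 6 for M1 against M2 in KpCKO and 0 of 4 for genotype in M1. Leaving out 1 array at a time gave 0 to 1 members with IL-4 in WT, 0 to 0 in KpCKO, 1 to 5 for genotype in M1 and 0 to 1 for the difference in the M1 response. Over the stimuli, 5 in place of 3 members passed with genes kept on all 12 arrays, with the mouse as a random block and with trended and robust variances, *Spi1* and *Mitf* being added, and the first and last of these also gave 1 in place of 0 for the difference in the M1 response, *Cebpa*. The methods' t-test was not run for genotype over the stimuli or for the differences in response, nor the fit of only the groups compared for genotype over the stimuli. The causes were not tested. The IL-4 differences of the members called were 0.49 to 2.21 in size and rest on 2 arrays per group, while the signal was well above background for every member.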
